A study of Mus musculus with 12 samples.

Results

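Wnt proteins are secreted ligands that bind Frizzled receptors, and they are held in check outside the cell by secreted frizzled-related proteins, which capture the ligands, and by Dickkopf proteins, which block the co-receptors Lrp5 and Lrp6. The signal can run through β-catenin and transcription factors of the TCF/LEF family, or through branches that do not need β-catenin, such as planar cell polarity and signalling by the Ror receptors. In the adult brain the pathway is known for roles in synapse maintenance, in the blood-brain barrier and in the stem cells of the hippocampus.

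The gene family was taken from the RNA-seq of mouse cortex by symbol, as every row of the count table whose name begins with Wnt, Fzd, Sfrp or Dkk followed by a digit, with 1 antisense gene (Fzd10os) left out. This gave 37 of 33024 gene symbols, namely 19 Wnt ligands, 10 Frizzled receptors, 4 secreted frizzled-related proteins and 4 Dickkopf inhibitors. Frozen cortex from 12 mice was sequenced, and both groups were wild-type animals of the strain C57BL/6 that came from the abstinence arm of the drinking study. The 5 EtOH mice had free choice between water and 20% (v/v) ethanol in 35 drinking sessions in the dark that began at 30 days of age, followed by 14 days of abstinence. The 7 Control mice were offered water in both bottles over the same schedule. All 12 mice went through behavioural tests before the tissue was taken, and the amount that each EtOH mouse drank was not used here. The mice are separate animals, and the tissue is bulk cortex, so that fewer cells of a type and less RNA per cell cannot be told apart in any value given here.

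Total counts per library lay between 31768079 and 42183031, so that 3 counts, the detection floor used here, corresponded to 0.0695 to 0.0962 CPM (counts scaled to the library total, after TMM normalization). All 12 counts of Dkk2 and all 12 of Sfrp1 were even numbers. Whether the mates of a read pair were counted separately was not tested, and if they were, a count and the floor of 3 counts stand for fewer fragments. The 6 members called below were the same with all counts halved. Of the 37 family members, 31 passed the filter on low counts, and 6 did not. Differences are log2 fold changes of EtOH against Control from edgeR's quasi-likelihood test, with p-values adjusted over all 16059 genes tested. Calls required a log2 fold change beyond 0.5 in either direction together with an adjusted p below 0.05.

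The label "cortex" was checked against marker genes, and the groups differed in the levels of markers of some brain regions. The 6 markers of cortical excitatory neurons, none of which was at 0, summed to 2203 to 2672 CPM in the Control mice and 2083 to 2648 CPM in the EtOH mice, and most of that sum came from Slc17a7. Within this list Fezf2 was called higher (log2 fold change 0.60), while Cux2 at 0.31 and Tbr1 at -0.40 passed the p threshold in opposite directions (edgeR adjusted p = 0.000100, 0.0181 and 0.00222). All 10 striatum markers were called lower, with sums of 995 to 2384 CPM in Control and 235 to 302 CPM in EtOH. All 8 hippocampus markers were called higher, with sums of 29.1 to 36.5 CPM in Control and 138 to 183 CPM in EtOH. Of the 5 choroid plexus markers tested, 3 were called higher, and the sums over 6 markers were 7.95 to 22.5 CPM in Control. In EtOH mice 1 to 5 these choroid plexus sums were 121, 20.4, 991, 277 and 12.1 CPM, so that EtOH mice 1, 3 and 4 lay above every Control mouse and mice 2 and 5 within the Control range. Of the other marker lists, 2 of 5 oligodendrocyte genes and 1 of 5 endothelial genes were called lower, 1 of 6 meninges and fibroblast genes was called higher, 3 tested thalamus genes gave 1 call in each direction, and no astrocyte or microglia gene was called. The sums of some of these lists nevertheless separated the groups. The 5 microglia genes, of which 3 had an adjusted p under 0.05, summed to 236 to 258 CPM in Control and 202 to 223 CPM in EtOH. The 5 astrocyte genes summed to 763 to 862 CPM in Control and 864 to 932 CPM in EtOH, with most of the sum from Slc1a3 and negative log2 fold changes in Aldh1l1 and Gjb6 (-0.04 and -0.16, neither called). The 4 thalamus genes summed to 24.4 to 32.3 CPM in Control and 33.4 to 51.6 CPM in EtOH. That rise came from Slc17a6 (14.6 to 30.9 CPM on average), while Tnnt1, Prkcd and the untested Gbx2 had lower means in EtOH. All 5 oligodendrocyte genes had negative log2 fold changes with an adjusted p under 0.05, and their sums were 4048 to 5409 CPM in Control and 2690 to 4839 CPM in EtOH, with 4 of 5 EtOH mice below every Control mouse. The striatum, hippocampus, microglia, astrocyte and thalamus sums thus had no overlap between the groups, and the choroid plexus sum overlapped in 2 and the oligodendrocyte sum in 1 of 5 EtOH mice. The endothelial sum was 188 to 211 CPM in Control and 179 to 198 CPM in EtOH, with 4 of 5 EtOH mice below every Control mouse. Ly6c1, the only called gene of that list, fell from 35.2 to 22.6 CPM on average. Flt1, the most abundant gene of the list, had means of 68.7 CPM in Control and 73.6 CPM in EtOH. The meninges and fibroblast sum lay above every Control mouse in 4 of 5 EtOH mice and below every Control mouse in EtOH mouse 2. In that list Dcn alone was called, with means of 8.46 CPM in Control and 31.0 CPM in EtOH. Col1a2 and Slc6a13 had negative log2 fold changes (-0.12 and -0.13). Col1a1, Lum and Ogn had positive ones (0.24, 0.14 and 0.16) without a call. The part of any of these marker lists in the differences described below was not tested.

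**Figure D1:**
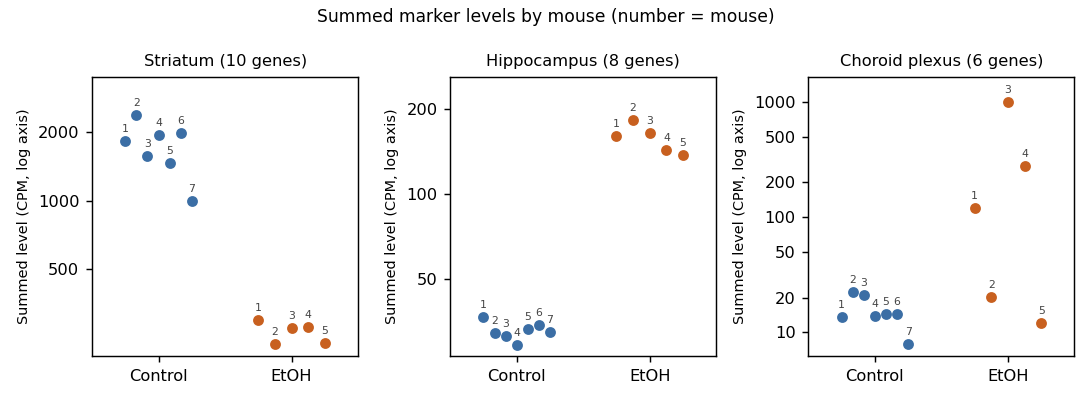
Summed level of the striatum (10 genes), hippocampus (8 genes) and choroid plexus (6 genes) markers in each mouse, in CPM on log axes, with the mouse number above each point. The groups do not overlap for striatum and hippocampus, whereas 2 of the 5 EtOH mice lie within the Control range for choroid plexus.

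Among the 31 members tested, 2 were called higher in the EtOH mice (6.45%), both of them ligands, and 4 were called lower (12.9%), of which 2 were ligands and 2 were secreted inhibitors. Over all genes tested, 4.20% were called higher and 4.09% called lower, and with 31 members a single gene makes up 3.23%. At an adjusted p under 0.05 with no minimum fold change there were 7 members (22.6%) against 23.7% of all genes. These shares were not tested, and the difference between 12.9% and 4.09% rests on few genes. The members' median log2 fold change was -0.01, against 1e-04 over all genes, and the median size of the change was 0.26 against 0.15. The ligands' log2 fold changes ran from -0.86 to 0.61 and those of the Frizzled receptors from -0.50 to 0.26.

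**Figure D2:**
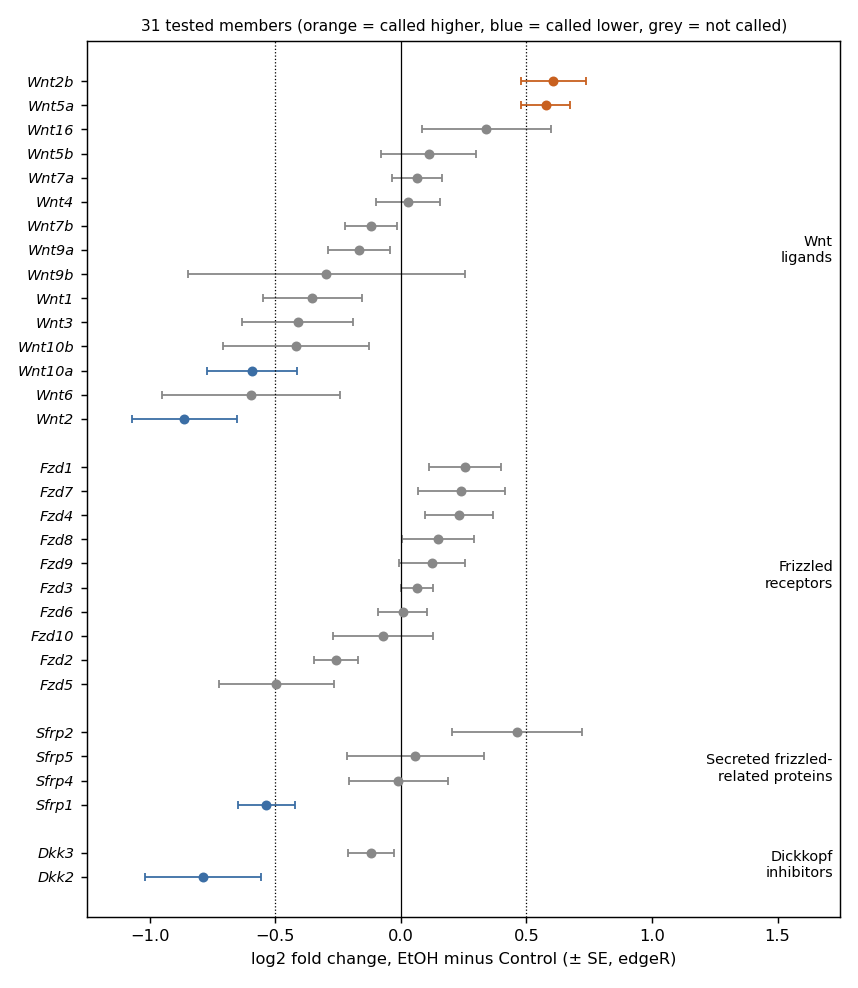
Log2 fold change of EtOH against Control for the 31 tested members, grouped by role, with bars of 1 SE from edgeR and dotted lines at 0.5 in either direction. The 2 members called higher (orange) and 2 of the 4 called lower (blue) are Wnt ligands, and no Frizzled receptor passed both thresholds.

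The ligand Wnt5a (chr14:28226495-28249405, plus strand, GRCm39) is best known for signalling without β-catenin, through Ror receptors and planar cell polarity. Its level in EtOH mice 1 to 5 was 11.9, 8.61, 12.2, 11.0 and 10.3 CPM, while the Control mice ran from a lowest value of 6.06 over a median of 7.23 to a highest of 7.89 CPM. Every EtOH mouse lay above every Control mouse, with EtOH mouse 2 closest to the Control range. The means were 7.26 ± 0.671 CPM (SD, n = 7) in Control and 10.8 ± 1.45 CPM (SD, n = 5) in EtOH, a log2 fold change of 0.58 ± 0.10 (SE, edgeR adjusted p = 0.000425). Leaving out the 3 EtOH mice with high choroid plexus sums, a choice made after seeing the data, took the log2 fold change to 0.38 and the adjusted p to 0.0930.

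Wnt2b (chr3:104851289-104869237, minus strand) is a ligand of the β-catenin branch. EtOH mice 1 to 5 had 5.47, 5.19, 5.42, 5.40 and 6.05 CPM, against 2.39, 3.72 and 4.40 CPM as the lowest, median and highest Control values. The EtOH mice lay close together and all above the Control mice. The log2 fold change was 0.61 ± 0.13 (SE, edgeR adjusted p = 0.00276), from 3.61 ± 0.669 CPM (SD, n = 7) to 5.51 ± 0.320 CPM (SD, n = 5). EtOH mice 2 and 5, whose choroid plexus sums were within the Control range, had Wnt2b at 5.19 and 6.05 CPM, both above every Control mouse. The choroid plexus marker Kl was nevertheless higher in these mice as well, since every EtOH mouse (8.08 CPM or more) lay above every Control mouse (3.71 CPM or less). The other choroid plexus markers (Ttr, Folr1, Clic6, Kcnj13 and Aqp1) lay within or below the Control range in both mice. With EtOH mice 2 and 5 alone the log2 fold change of Wnt2b was 0.63, and the adjusted p was 0.0553. Of all genes tested, 4.84% had every EtOH mouse above every Control mouse, and among the members Wnt5a and Wnt2b did so (6.45%).

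Wnt2 (chr6:17985468-18031892, minus strand), a ligand of the β-catenin branch, had the lowest log2 fold change of the family. Its level was 3.24, 2.67, 1.91, 2.91 and 1.52 CPM in EtOH mice 1 to 5, and 2.98, 4.10 and 6.40 CPM in the lowest, median and highest Control mouse. The groups overlapped only through Control mouse 5, at 2.98 CPM, which lay below EtOH mouse 1. Wnt2 fell from 4.49 ± 1.20 CPM (SD, n = 7) to 2.45 ± 0.717 CPM (SD, n = 5). Its log2 fold change was -0.86 ± 0.21 (SE, edgeR adjusted p = 0.00663), and it stayed called with each mouse left out in turn.

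Wnt10a (chr1:74830675-74844355, plus strand) is likewise a ligand of the β-catenin branch. EtOH mice 1 to 5 had 8.18, 10.8, 4.29, 6.61 and 7.90 CPM, and the lowest, median and highest Control values were 8.38, 10.7 and 14.4 CPM. EtOH mouse 2 lay within the Control range and the other 4 EtOH mice below it. Wnt10a fell from 11.4 ± 2.26 CPM (SD, n = 7) to 7.56 ± 2.38 CPM (SD, n = 5), with a log2 fold change of -0.59 ± 0.18 (SE, edgeR adjusted p = 0.0233). The call rested on single mice, since the adjusted p was 0.0515 without EtOH mouse 3, with a log2 fold change of -0.45, and 0.0588 without EtOH mouse 4. Without EtOH mice 1, 3 and 4 together the log2 fold change was -0.29 (adjusted p = 0.388).

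**Figure D3:**
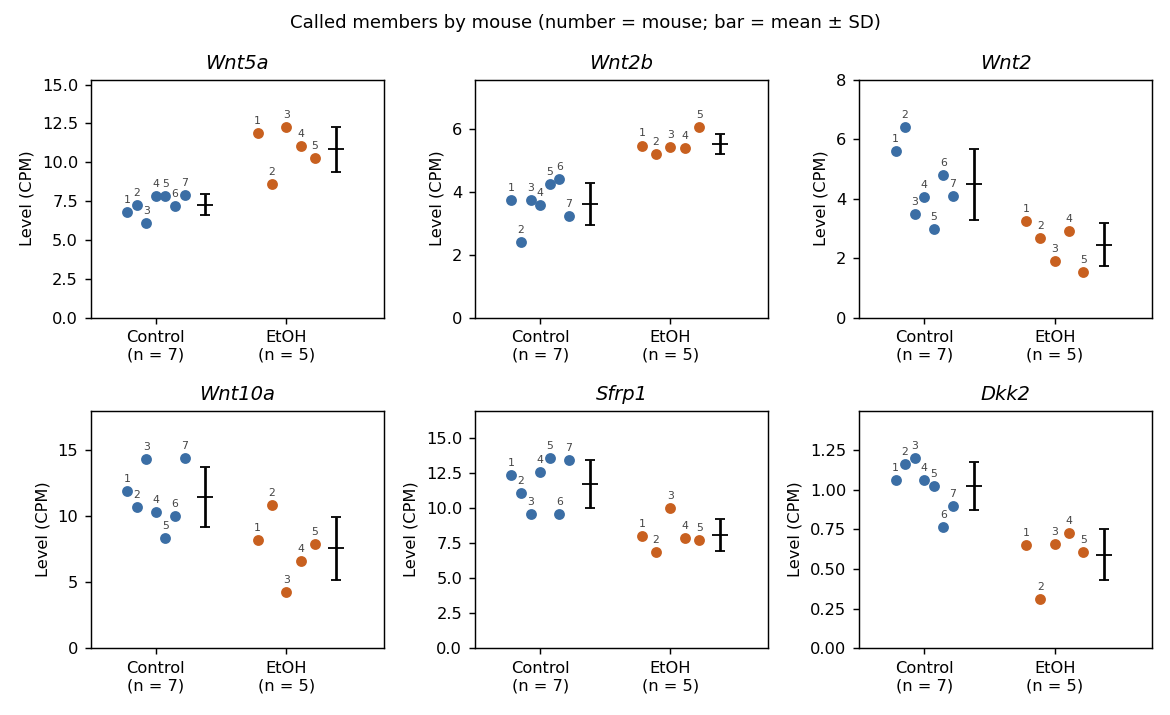
Level in CPM of the 6 called members in each of 7 Control and 5 EtOH mice, with the mouse number above each point and bars for the mean ± SD. Wnt5a, Wnt2b and Dkk2 show no overlap between the groups, while EtOH mouse 2 lies within the Control range for Wnt10a and EtOH mouse 3 for Sfrp1.

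The secreted inhibitor Sfrp1 (chr8:23901263-23939648, plus strand) binds Wnt ligands outside the cell. In EtOH mice 1 to 5 it was at 8.02, 6.90, 10.01, 7.89 and 7.72 CPM, and in the Control mice at 9.56, 12.4 and 13.6 CPM for the lowest, median and highest. EtOH mouse 3 was the only EtOH mouse above the lowest Control mice. Sfrp1 fell from 11.8 ± 1.70 CPM (SD, n = 7) to 8.11 ± 1.15 CPM (SD, n = 5), with a log2 fold change of -0.54 ± 0.11 (SE, edgeR adjusted p = 0.00251). Its change lay near the fold minimum, and it was -0.49 without EtOH mouse 2 and -0.49 without the 2 deeper libraries (Control mouse 5 and EtOH mouse 1), at adjusted p-values of 0.00622 and 0.0115. The other 3 secreted frizzled-related proteins were not called. Sfrp2 was at 1.90, 0.560, 1.52, 1.40 and 1.49 CPM in EtOH mice 1 to 5, against Control values of 0.562, 1.02 and 1.27 CPM. All EtOH mice but mouse 2 were above the Control range, and the log2 fold change of 0.46 ± 0.26 (SE, adjusted p = 0.208) became 0.65 (adjusted p = 0.0369) without mouse 2. Sfrp4 and Sfrp5 had log2 fold changes of -0.01 and 0.06, with overlapping groups.

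Dkk2 (chr3:131790336-131886065, plus strand) binds the co-receptor Lrp6. It was scarce, with 342 counts over all 12 mice. The EtOH mice had 0.649, 0.311, 0.656, 0.728 and 0.608 CPM, and the lowest, median and highest Control mice 0.765, 1.06 and 1.20 CPM. Every EtOH mouse lay below every Control mouse, which held for 4.96% of all genes tested and for Dkk2 alone among the members (3.23%). The log2 fold change was -0.79 ± 0.23 (SE, edgeR adjusted p = 0.0196), from 1.03 ± 0.151 CPM (SD, n = 7) to 0.590 ± 0.162 CPM (SD, n = 5). With EtOH mice 2 and 5 alone it was -1.16 (adjusted p = 0.0562).

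Dkk3, a divergent Dickkopf whose action on Wnt signalling is unsettled, was by far the most abundant member. Per kilobase of exon it stood at 54.9 ± 5.94 CPM per kb (SD, n = 7) in Control and 50.6 ± 7.50 CPM per kb (SD, n = 5) in EtOH. Its log2 fold change of -0.12 ± 0.09 (SE, adjusted p = 0.364) did not pass the test. Dkk1 and Dkk4, inhibitors that bind Lrp5 and Lrp6, were nearly undetected, with 4 counts each over 12 mice and 2 counts in each of the 2 mice that had any.

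None of the 10 Frizzled receptors was called, and 7 of them had positive and 3 negative log2 fold changes. Fzd2, a receptor of both branches, was at 17.2, 12.3, 17.6, 17.4 and 17.1 CPM in EtOH mice 1 to 5, against 17.3, 19.8 and 21.8 CPM in the lowest, median and highest Control mouse. EtOH mouse 2 lay far below the rest, and the other 4 sat at the lower edge of the Control range or just below it. Its log2 fold change of -0.26 ± 0.09 (SE, edgeR adjusted p = 0.0418) passed the p threshold but not the fold minimum. With single mice left out the adjusted p ran from 0.0350 to 0.0752, and it stayed under 0.05 in 4 of 12 such fits, those without Control mouse 1, Control mouse 5, EtOH mouse 3 or EtOH mouse 4. Fzd5 had the lowest log2 fold change of the receptors at -0.50 ± 0.23 (SE, adjusted p = 0.125), and it passed both thresholds at -0.61 (adjusted p = 0.0437) once Control mouse 3 was left out. Fzd1, Fzd7 and Fzd4, which can all act in the β-catenin branch, had log2 fold changes of 0.26, 0.24 and 0.23, at adjusted p-values of 0.213, 0.338 and 0.226. Those of Fzd8, Fzd9, Fzd3, Fzd6 and Fzd10 were 0.15, 0.12, 0.07, 0.01 and -0.07.

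The levels per kilobase of exon set the order of the family in this tissue. In the Control mice, Dkk3 was followed by the ligand Wnt7b, long known for guiding vessel growth in the brain, at 10.3 ± 0.847 CPM per kb (SD, n = 7). The receptor Fzd3, which is needed for axon tracts, was at 9.76 ± 0.869 CPM per kb (SD, n = 7). The Control ranges of Wnt7b (9.05 to 11.5 CPM per kb) and Fzd3 (8.64 to 10.7 CPM per kb) overlapped, whereas Dkk3 did not go below 44.5 CPM per kb. Next came Fzd2 at 5.33, Wnt9a at 5.13, Wnt4 at 4.42, Wnt7a at 3.02 and Fzd1 at 2.89 CPM per kb on average, with Fzd2, Wnt9a and Wnt4 overlapping over their Control mice. The called members sat lower in this order, at Control means per kilobase of 2.69 for Wnt10a, 2.44 for Sfrp1, 0.903 for Wnt5a, 0.657 for Wnt2b, 0.357 for Wnt2 and 0.242 for Dkk2. The 2 most abundant ligands did not pass the test, with log2 fold changes of -0.12 ± 0.10 (SE, adjusted p = 0.430) for Wnt7b and -0.17 ± 0.12 (SE, adjusted p = 0.344) for Wnt9a.

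**Figure D4:**
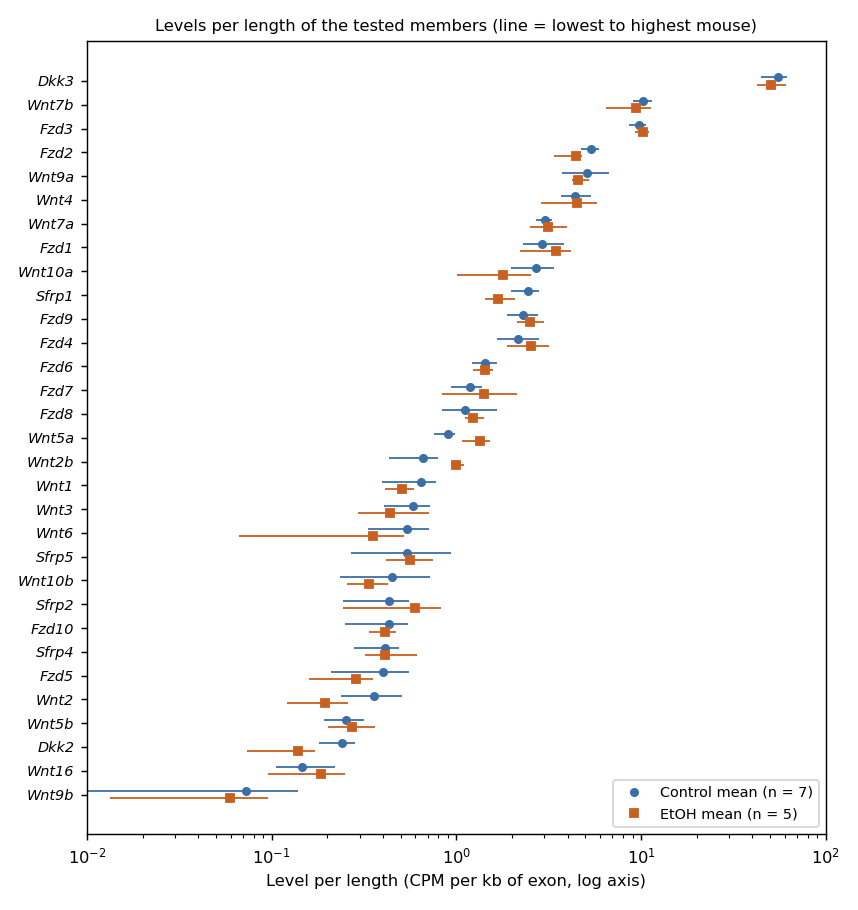
Mean level per kilobase of exon (CPM per kb, log axis) of the 31 tested members in Control (circles) and EtOH (squares) mice, with lines from the lowest to the highest mouse. Dkk3 stands above all other members, and the line of Wnt9b runs off the axis because 1 Control mouse had a count of 0.

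At the low end stood the 6 members that were not tested. Wnt11 had 101 counts over all mice and reached 0.367 CPM in Control and 0.556 CPM in EtOH. Wnt8b, a ligand of the developing forebrain, had 50 counts, with Control values of 0.0626 to 0.429 CPM and a count of 0 in EtOH mice 1, 3 and 5. Wnt8a and Wnt3a had 8 counts each. With a filter of at least 1 count in any mouse all 37 members were tested, and none of these 6 was called.

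Low counts also limited Wnt9b, with 122 counts, whose log2 fold change of -0.30 had a standard error of 0.55. The other ligands were not called. Their log2 fold changes were -0.60 ± 0.35 for Wnt6, -0.42 ± 0.29 for Wnt10b, -0.41 ± 0.22 for Wnt3 and -0.35 ± 0.20 for Wnt1 (SE), at adjusted p-values of 0.233, 0.319, 0.188 and 0.211. Wnt3 passed both thresholds at -0.66 (adjusted p = 0.0279) without EtOH mouse 2. Wnt16, Wnt5b, Wnt7a and Wnt4 had log2 fold changes of 0.34, 0.11, 0.06 and 0.03.

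Several members are neighbours in the genome, as in other vertebrates. Within 100 kb of each other lie 4 pairs, Wnt6 with Wnt10a, Wnt3a with Wnt9a, Wnt9b with Wnt3, and Wnt10b with Wnt1. The gap was 5699 bp between Wnt6 and Wnt10a on chromosome 1, whereas Wnt10b and Wnt1 on chromosome 15 overlap on opposite strands. All 7 tested genes of these pairs had negative log2 fold changes, from -0.60 in Wnt6 to -0.17 in Wnt9a, and Wnt10a alone was called. Over all 31 members, 16 were negative. The pairs were singled out after their values had been seen, and their share was not tested. In total 19 of the 37 members overlap exons of another gene on the opposite strand, among them Wnt5a (Gm2670), Wnt2b (Gm65748) and Wnt10a (Gm32099). Whether the counting used strand is not given in the sources used here, so for these genes reads of the antisense partner cannot be told apart. No such overlap was found for Wnt2, Sfrp1 and Dkk2.

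The promoters of called members are shown to set a ligand that was higher beside members that were lower. They are RefSeq sequences of GRCm38.p6, from 250 bases before to 50 bases after the gene start, and the table gave them for Wnt2b, Dkk2 and Wnt2 and for 25 of the 37 members in all. Capitals mark TATAAA, the core of a TATA box.
Wnt2b, chr3:104961660-104961959, minus strand: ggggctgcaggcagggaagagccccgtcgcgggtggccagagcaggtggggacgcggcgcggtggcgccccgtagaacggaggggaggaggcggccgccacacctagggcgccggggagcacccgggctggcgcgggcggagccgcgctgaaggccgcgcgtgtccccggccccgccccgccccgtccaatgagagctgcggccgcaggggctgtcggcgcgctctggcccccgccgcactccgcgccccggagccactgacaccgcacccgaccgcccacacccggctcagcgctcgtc
Dkk2, chr3:132085042-132085341, plus strand: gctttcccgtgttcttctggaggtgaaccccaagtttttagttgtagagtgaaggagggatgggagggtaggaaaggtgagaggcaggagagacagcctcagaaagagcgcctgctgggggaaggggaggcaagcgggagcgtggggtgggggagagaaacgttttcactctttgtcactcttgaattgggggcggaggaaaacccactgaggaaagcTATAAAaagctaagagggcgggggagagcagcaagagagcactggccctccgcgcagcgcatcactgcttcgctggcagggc
Wnt2, chr6:18030396-18030695, minus strand: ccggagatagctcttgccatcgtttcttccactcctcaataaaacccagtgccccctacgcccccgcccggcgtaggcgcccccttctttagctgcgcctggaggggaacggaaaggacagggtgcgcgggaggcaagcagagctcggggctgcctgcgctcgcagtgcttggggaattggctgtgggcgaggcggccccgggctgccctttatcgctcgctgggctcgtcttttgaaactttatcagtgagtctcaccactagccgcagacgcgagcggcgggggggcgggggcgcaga
The Wnt2b promoter held 43 CpG dinucleotides in 300 bases at 79.67% GC, Wnt2 held 27 at 65.67% and Dkk2 held 11 at 57.67%. The median was 26.5 CpG over 28 promoters of members, against 7 over all 32851 promoters. The letters TATAAA, searched on both strands, were in the Dkk2 window 32 to 27 bases before the start, in 4 of the 28 member promoters and in 13.6% of all promoters. The core CTTTGA, which TCF/LEF factors bind, was searched on both strands as well. It was in none of the 3 windows shown, in 4 of the 28 member promoters (Fzd1, Wnt5b, Wnt11 and Dkk1) and in 16.0% of all promoters.

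The wider pathway was followed in a list of 60 genes chosen for their roles. Of the 58 tested, 5 were called higher (8.62%) and 4 lower (6.90%), and 21 had an adjusted p under 0.05 (36.2%, against 23.7% of all genes). These shares, like the calls over all genes of 4.20% higher and 4.09% lower, were not compared by a test. Ror1 and Ror2, receptors that bind Wnt5a, were both called higher. Of the 5 co-receptors and alternative receptors, 2 had negative log2 fold changes. One of these was the receptor Ryk, at -0.18 (edgeR adjusted p = 0.0559, not called), with means of 30.9 CPM in Control and 27.2 CPM in EtOH. Ror1 was at 2.09, 2.80, 3.55, 3.03 and 1.70 CPM in EtOH mice 1 to 5, against 0.962 to 1.81 CPM in Control, and its log2 fold change was 0.86 ± 0.19 (SE, edgeR adjusted p = 0.00408). Ror2 was at 2.25, 1.18, 1.37, 2.15 and 1.64 CPM, against 0.594 to 1.37 CPM, at 0.87 ± 0.23 (SE, adjusted p = 0.0119). In each case 4 of 5 EtOH mice lay above every Control mouse, the exceptions being EtOH mouse 5 for Ror1 and EtOH mouse 2 for Ror2. With EtOH mice 2 and 5 alone the log2 fold changes were 0.63 for Ror1 and 0.58 for Ror2, and neither was called (adjusted p = 0.154 and 0.293).

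Among the other extracellular modulators, Sostdc1, a secreted inhibitor of Wnt and BMP signalling, had the largest change of the list. It was at 2.13, 1.80, 8.34, 2.00 and 0.729 CPM in EtOH mice 1 to 5, against 0.0977 to 0.937 CPM in Control. The highest value fell in EtOH mouse 3, which also had the highest choroid plexus sum, and EtOH mouse 5 lay within the Control range. The log2 fold change was 2.53 ± 0.52 (SE, edgeR adjusted p = 0.00192), 1.68 (adjusted p = 0.00941) without EtOH mouse 3 alone, and 1.27 (adjusted p = 0.178) without EtOH mice 1, 3 and 4. Kremen1, a receptor through which Dickkopf proteins act, fell by 0.53 on the log2 scale (SE 0.06, adjusted p = 1.04e-05), and Dkkl1, a Dickkopf-like secreted protein, fell by 0.61 (SE 0.10, adjusted p = 0.000346). For both, every EtOH mouse was below every Control mouse. Kremen1 was just short of the fold minimum at -0.50 without EtOH mouse 3.

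In the R-spondin module, which raises the number of receptors at the cell surface, the receptor Lgr5 was lower in every EtOH mouse than in any Control mouse. It was at 3.66, 2.61, 3.87, 3.40 and 3.01 CPM in EtOH and at 4.83 to 13.3 CPM in Control, a log2 fold change of -1.52 ± 0.22 (SE, edgeR adjusted p = 7.64e-05). The receptor Lgr4 went the other way, at 29.3 CPM in Control and 34.8 CPM in EtOH on average, with no overlap. Its log2 fold change of 0.25 (edgeR adjusted p = 0.0123) was below the fold minimum. Of the 8 tested genes of the module, 6 had positive log2 fold changes, a share that was not tested. The transcription factor Tcf7 was lower, from 7.77 to 4.52 CPM on average (log2 fold change -0.78 ± 0.13, SE, adjusted p = 0.000425), with no overlap. None of the 11 cytoplasmic genes was called, and Ctnnb1, which encodes β-catenin, had a log2 fold change of 0.07 ± 0.06 (SE, adjusted p = 0.378).

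Of the 4 feedback targets of β-catenin, 1 was called higher and none lower. Axin2, the usual readout of the β-catenin branch, was at 27.7, 27.2, 31.02, 26.3 and 31.5 CPM in EtOH mice 1 to 5, against 25.6, 28.3 and 32.9 CPM in the lowest, median and highest Control mouse. The groups overlapped throughout, with a log2 fold change of 0.01 ± 0.07 (SE, adjusted p = 0.919). Nkd2, an inhibitor of Dishevelled, was higher in every EtOH mouse (6.81, 4.73, 8.08, 9.16 and 4.32 CPM) than in any Control mouse (2.39 to 4.05 CPM), with a log2 fold change of 1.05 ± 0.18 (SE, adjusted p = 0.000428). Its paralog Nkd1 was at -0.26 ± 0.08 (SE, adjusted p = 0.0211), below the fold minimum. Without EtOH mice 1, 3 and 4, Nkd2 was at 0.50 (adjusted p = 0.124). In planar cell polarity, 8 of 9 genes had positive log2 fold changes, against 8031 of all 16059 genes tested. The share was not tested. Celsr3, a cadherin needed for axon tracts, was the only gene of this list that was called. It was at 0.62 ± 0.12 (SE, edgeR adjusted p = 0.00131), with every EtOH mouse above every Control mouse.

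**Figure D5:**
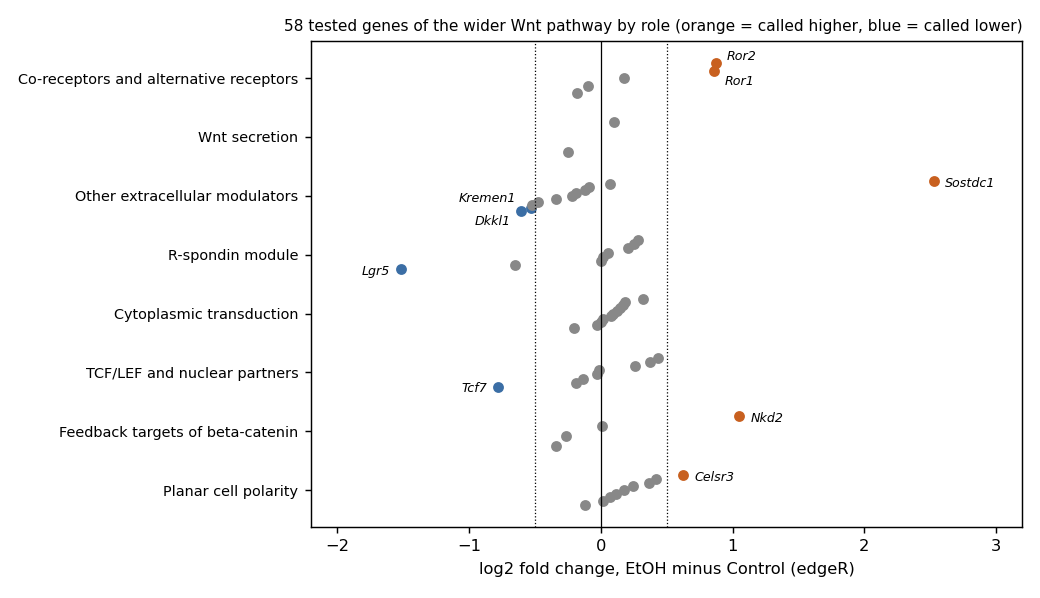
Log2 fold change of EtOH against Control (edgeR) for the 58 tested genes of the wider Wnt pathway, by role, with dotted lines at 0.5 in either direction. The 5 genes called higher (orange) and 4 called lower (blue) are named, and Sostdc1 and Lgr5 have the largest changes.

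EtOH mouse 2 stood apart from its group across the family. It had the lowest value of its group in 15 and the highest in 8 of the 31 tested members, 23 in all, whereas the other 4 EtOH mice were at an extreme in 8 to 12 members. The same mouse had an oligodendrocyte marker sum of 4839 CPM, within the Control range of 4048 to 5409 CPM, against 2690 to 3360 CPM in the other EtOH mice, and a meninges and fibroblast marker sum of 34.6 CPM, against 67.1 to 111 CPM in the other EtOH mice and 40.8 to 60.2 CPM in Control. Within the meninges and fibroblast list, Dcn was at 3.39 log2 CPM in EtOH mouse 2. In EtOH mice 1, 3, 4 and 5 it was at 4.85, 5.82, 5.21 and 4.52 log2 CPM. Col1a1 was about equally low in EtOH mice 2 and 4 (2.70 and 2.68 log2 CPM). The part of these markers in the members' values was not tested.

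Within the 7 Control mice, where no ethanol was given, the 6 called members were set against the mean log2 CPM of the striatum and hippocampus markers, 12 relations in all. The largest r was that of Wnt2 with the striatum markers, with Pearson's r = 0.62 (exact permutation p = 0.136, adjusted p = 0.668) and Spearman's rho = 0.64 (exact permutation p = 0.139, adjusted p = 0.741). Sfrp1 with the striatum markers had a rho of the same size and the opposite sign, at -0.64 (r = -0.46). Without the 2 mice farthest from the median score, r for Wnt2 was 0.86, whereas the sign turned for several others, among them from -0.46 to 0.26 for Sfrp1 with striatum, from -0.25 to 0.66 for Wnt5a with striatum and from -0.56 to 0.66 for Wnt10a with hippocampus. No relation passed the threshold, and with 7 mice this does not show that the levels were unrelated to these markers.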

How the data were processed

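Cortex from 7 Control and 5 EtOH mice was compared, grouped by the sample labels. The authors had total RNA sequenced by BGI, checked reads with FastQC 0.11.9, mapped them with STAR to GRCm39 (annotation of Gencode Release 28), counted them with featureCounts and used DESeq2. The strand and multi-mapping settings are not given in the sources used here. The authors deposited expected counts per gene symbol without normalization. In 61 symbols, none of them a member, values were not whole, and all counts were rounded. Even numbers made up 71.8% of the members' 401 nonzero counts and 57.9% of all nonzero whole counts, for a reason that was not tested.

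Family members and lists were chosen with earlier results of these data known. Named are all members, called genes of the pathway list, and markers beside a result. Values shown for Axin2, Ctnnb1, Nkd1, Ryk and Lgr4 were added after they were seen.

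Genes were filtered with filterByExpr, scaled with TMM and compared by the quasi-likelihood test of edgeR, with p-values adjusted after Benjamini and Hochberg over 16059 genes (R 4.3.3, edgeR 4.0.16, limma 3.58.1). CPM are counts per library total times TMM factor, and log2 CPM used a prior count of 2. The SE is the log2 fold change over the root of the F statistic. Total counts were 31768079 to 42183031 per mouse, and counting error of sparse genes follows from them. The fit was tested on simulated data. Alternatives were DESeq2 1.42.0, limma voom, other scalings, filters and fold minimums, the replicate number as a block, and mice left out. Positions and exon lengths are from Gencode vM39 (GRCm39), and promoters from RefSeq (GRCm38.p6).

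Replicate numbers come from the labels and number different mice.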

Additional observations from a re-analysis of the deposited data

Results flagged for a closer look

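In 7 of 62 groups of mice, over 31 tested members and both groups, the lowest mouse lay further from the next than Dixon's 95% critical value allows. Chance flags about 1 in 20 such groups, or 3.1 of 62. In EtOH mouse 2, Dkk2 was at -1.43 log2 CPM (next mouse -0.58), Fzd2 at 3.63 (next 4.10) and Sfrp2 at -0.69 (next 0.54). Fzd5 was at 0.59 log2 CPM in Control mouse 3 (next 1.38) and at 0.23 in EtOH mouse 1 (next 1.06). Sfrp2 was at -0.69 log2 CPM in Control mouse 4 (next 0.01). Wnt9b, with a count of 0, was at -4.08 log2 CPM in Control mouse 7 (next -2.01).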

How the results depend on the processing

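The 2 members called higher and 4 called lower were the same genes with DESeq2, limma voom, relative log expression or upper quartile factors, either filter on low counts and halved counts, the last chosen after seeing the data. With a log2 fold change above 1 required, 0 members were called higher and 0 lower, and 2 and 1 pathway genes. With no fold minimum, 14 pathway genes were higher and 7 lower. Without EtOH mice 1, 3 and 4, a choice made after seeing the data that leaves 2 EtOH mice, 0 members were higher and 2 lower (Sfrp1 and Wnt2), and 1 pathway gene was higher (Celsr3) and 5 lower (Frzb, Dkkl1, Kremen1, Lgr5 and Tcf7). Over all genes that fit called 397 higher and 466 lower of 16607, against 674 and 657 of 16059, and the part of choroid plexus was not tested. Without single mice, members called ranged from 2 to 3 higher and 3 to 5 lower, and pathway genes from 4 to 6 lower, with 5 higher in each such fit. Sfrp1 was also lost without the 2 deeper libraries, which left 3 members lower. The replicate numbers did not pair the mice, since same-numbered mice correlated at -0.108 to 0.018 over 5 pairs and 0 of 5 EtOH mice correlated best with their own number. With the replicate block, over 10 mice, 2 members were called higher and 3 lower, and Wnt10a was lost at -0.58 (adjusted p = 0.0619). The 6 called members kept their direction in all settings run. Dkk2 and Wnt9b rest on 342 and 122 counts over 12 mice.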
